A study of Mus musculus with 11 samples.

Results

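A set of genes of the heat shock system was followed by name through the count table of the series. They were Hspa1a, Hspa1b, Hspa8, Hsph1, Dnajb1, Bag3, Hsp90aa1, Hspb1, Hspd1 and Hspe1, found by their gene symbols, and they made up 10 of the 22600 genes of the merged table. All 10 passed the filter on low counts, as did 16496 genes overall. Messenger RNA had been sequenced from the whole distal tibia, cut at the junction of tibia and fibula, of 4 Control and 7 BMAd-DTA animals, each giving 1 library. The mice were C57BL6/SJL, 24 weeks old and fed ad libitum. Per the study's methods, every mouse carried the Osterix-FLPo allele and FAC, a Cre recombinase in the Adipoq gene that FLPo switches on, so the Control mice (labelled BMAd-WT) carried both recombinases as well. BMAd-DTA mice also carried ROSA-DTA, in which Cre removes a stop cassette so that bone marrow adipocytes (BMAds) make diphtheria toxin A. Recombination is incomplete in young animals, some BMAds remain, and part of the marrow adipogenic precursors also express the Cre.

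Heat shock proteins are molecular chaperones: they bind unfolded stretches of other proteins, keep these from clumping and help them to fold. HSP70 proteins take up a client with the help of J-domain proteins and release it through nucleotide exchange factors, HSP90 finishes the folding of kinases and steroid receptors, small heat shock proteins hold unfolded chains without using ATP, and a chaperonin chamber folds proteins inside mitochondria. Some of these genes are active in every cell, while others are switched on within minutes by the heat shock factor HSF1 when proteins unfold.

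The libraries held 16969529 to 18637663 assigned read pairs, with the Control and BMAd-DTA ranges overlapping. The 17 adipocyte markers tested had a median log2 fold change, BMAd-DTA over Control, of -0.79, and edgeR called 1 of them lower (Retn, which encodes resistin; 0 without any 1 of Control mice 1 and 2 and BMAd-DTA mice 1 and 6), DESeq2 5. Of the 12 osteoblast and osteocyte markers, edgeR called 1 higher (Alpl; 0 without any 1 of the same 4 mice or BMAd-DTA mouse 4, 4 without Control mouse 3 and 2 without Control mouse 4) and DESeq2 8, and their summed level was 3470 to 13710 CPM (counts scaled to the library total, after TMM adjustment of that total) in Control, where mouse 1 was lowest, against 16680 to 37010 CPM in BMAd-DTA. Most of that sum came from 2 collagen genes, named here for their share. Col1a1 averaged 4720 CPM in Control and 12020 CPM in BMAd-DTA, and Col1a2 3869 and 9255 CPM. For some of the other markers the groups overlapped. The summed level of 20 skeletal muscle markers ran from 87.8 to 1779 CPM in Control and from 88.8 to 1355 CPM in BMAd-DTA, with none called. Unmapped pairs were 9.10% to 11.5% in 2 Control and 3 BMAd-DTA libraries, and 13.8% to 15.1% in the other 2 Control and 4 BMAd-DTA libraries, a split for which the labels name no batch. The study describes the mice of this experiment as male and the labels give no sex, while each library held 13810 to 20260 counts of Xist, the RNA that coats an inactive X, and 0 or 1 counts over 4 genes of the Y chromosome.

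The members together took 0.135% to 0.191% of the TMM-adjusted total of a library. Hspa8 and Hsp90aa1 alone made up 79.3% to 81.4% of that amount. Per kilobase of annotated exon (all exons of a gene joined), the constitutive HSP70 gene Hspa8 stood highest at 224 ± 21.5 CPM per kb (SD, n = 11 mice). Next were Hsp90aa1 at 71.2 ± 13.2, Hspd1 at 42.0 ± 5.83 and Dnajb1 at 22.4 ± 3.10 CPM per kb. Each of the first 3 exceeded the next gene in that order in 11 of 11 mice. Dnajb1 and Bag3 did not separate: Bag3 was at 21.2 ± 2.24 CPM per kb, Dnajb1 was the higher of the pair in 6 of 11 mice, and their mean log2 ratio of 0.08 was smaller than its SD of 0.28. Hspe1 followed at 17.5 ± 2.63, below Bag3 in 9 of 11 mice by a mean log2 ratio (0.29) no larger than its SD (0.30). Hspb1, at 5.55 ± 0.86, and Hsph1, at 4.04 ± 0.71, lay close together with the order kept in 10 of 11 mice. The stress-inducible HSP70 genes Hspa1b, at 0.98 ± 0.25, and Hspa1a, at 0.52 ± 0.16 CPM per kb, were the lowest of the 10 in all 11 mice. The order in the middle depended on the length used: divided by the length of the longest coding transcript per gene, an alternative added after the data were seen, Hspe1 was at 33.3 ± 5.01 CPM per kb and above Dnajb1 (24.0 ± 3.31) in 11 of 11 mice, and Hsph1 (7.72 ± 1.36) was above Hspb1 (6.15 ± 0.95) in 9 of 11. The first 3 and the last 2 genes kept their places. Multimapping pairs, which are not counted, remove unequal parts of the genes. Of the 100-base windows of the transcript, 47.5% of Hsp90aa1, 26.9% of Hspd1 and 20.4% of Hspe1 also occur in other genes. None of Hsph1 and Bag3 do, and the other members are described below. By mean CPM, 99.6% of the tested genes lay below Hspa8 and 14.9% below Hspa1a.

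**Figure D1:**
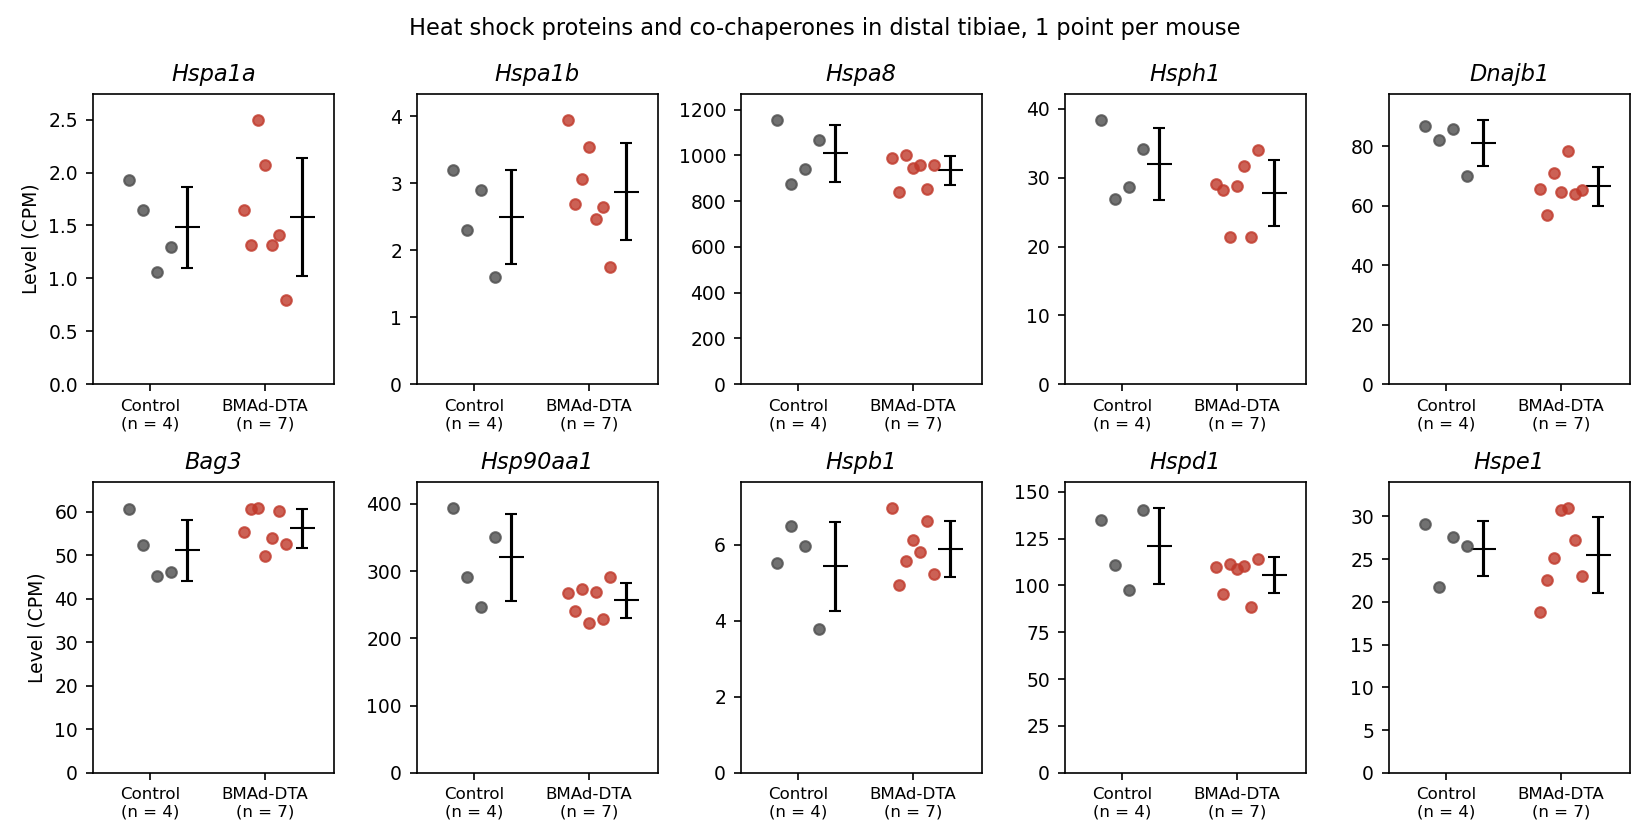
Level of each gene in CPM (vertical axis from 0, scaled for each gene) in 4 Control and 7 BMAd-DTA mice; each point is 1 mouse, and the bar and whiskers give the group mean and SD. The groups overlapped for all 10 genes, with the widest separations for Dnajb1, where 5 of 7 BMAd-DTA mice lay below every Control mouse, and Hsp90aa1, where 3 of 4 Control mice lay above every BMAd-DTA mouse. For Hsp90aa1, 1 of these 3 (mouse 2, 291.5 CPM) was nearly level with the highest BMAd-DTA mouse (291.3 CPM).

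Heat shock genes that HSF1 switches on carry heat shock elements, inverted repeats of the unit GAA, near the start of transcription. Promoter windows of RefSeq (GRCm38.p6) were found for 8 members, not for Hspa8 and Hsp90aa1, and the 250 bases before each start were searched on both strands. An array of 3 units (TTCNNGAANNTTC or GAANNTTCNNGAA) was present in 0.466% of 32851 windows of this length, and 2 units (TTCNNGAA or GAANNTTC, which also lie inside the longer arrays) in 12.8%. Among the members, the longer array occurred once, at the mitochondrial chaperonin genes Hspd1 and Hspe1, which overlap at their 5′ ends on opposite strands of chromosome 1. It consisted of 4 successive units, at chr1:55088053-55088082 with flanks, and lay 89 to 72 bases before the Hspe1 start. For Hspd1 it lay 144 to 127 bases before 1 of 2 RefSeq starts, inside an annotated Hspd1 exon, and the window of the other start held no array. It is shown in both reading directions because the windows of both genes hold it, with the repeated units and their spacers in capitals:

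Hspe1 side (+ strand): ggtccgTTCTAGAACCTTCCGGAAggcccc

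Hspd1 side (- strand): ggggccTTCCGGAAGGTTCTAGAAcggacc

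Shorter 2-unit matches (capitals) lay before Hspa1a (chr17:34972247-34972266, - strand), Hspa1b (chr17:34959329-34959348, - strand), Hsph1 (chr5:149636356-149636375, - strand, within its annotated 5′ exon) and Hspb1 (chr5:135887796-135887815 and chr5:135887816-135887835, + strand). The Hspa1a and Hspa1b stretches are shown because they are the same letter for letter, and the others for comparison of the inducible genes:

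Hspa1a and Hspa1b: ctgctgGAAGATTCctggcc

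Hsph1: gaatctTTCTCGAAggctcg

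Hspb1, farther from the start: acaagaGAAGTTTCcagatg

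Hspb1, nearer to the start: ggggcaGAACCTTCctggcc

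Neither arrangement of letters was found in the windows of Dnajb1 and Bag3. A match is a description of the letters and was not tested as a binding site.

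Across the whole table, the quasi-likelihood test of edgeR, adjusted by Benjamini-Hochberg, called 13 of 16496 genes between the genotypes at an adjusted p under 0.05, which is 0.0788% (0.00606% lower and 0.0727% higher in BMAd-DTA). It called none of the 10 members. That count over all genes rested on single mice: it was 292 without Control mouse 3, 89 without Control mouse 4, 8 without BMAd-DTA mouse 3, 3 without BMAd-DTA mouse 4, and 0 without any 1 of Control mice 1 and 2 and BMAd-DTA mice 1 and 6, and in each of these fits no member was called. At an unadjusted p under 0.05, 2 members (Dnajb1 and Hsp90aa1) were past the threshold against 16.4% of all genes, and both were lower in BMAd-DTA, as were 8.53% of all genes, while 7.89% were higher. DESeq2, run as an alternative, called 1 member (Dnajb1, lower) and 5.42% of the 15583 genes it could adjust (2.64% lower and 2.78% higher). It is also the method that the study names for its own comparison of the genotypes. No member had groups that did not overlap in CPM, which 2.81% of all tested genes had. The log2 fold change was below 0 for 6 members and above 0 for 4, with a median of -0.08 against 0.0018 over all tested genes, of which 49.6% were below 0 and 50.4% above. In RNA from a whole bone, fewer cells of a type and less RNA per cell cannot be told apart, and a CPM is a share of the library.

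**Figure D2:**
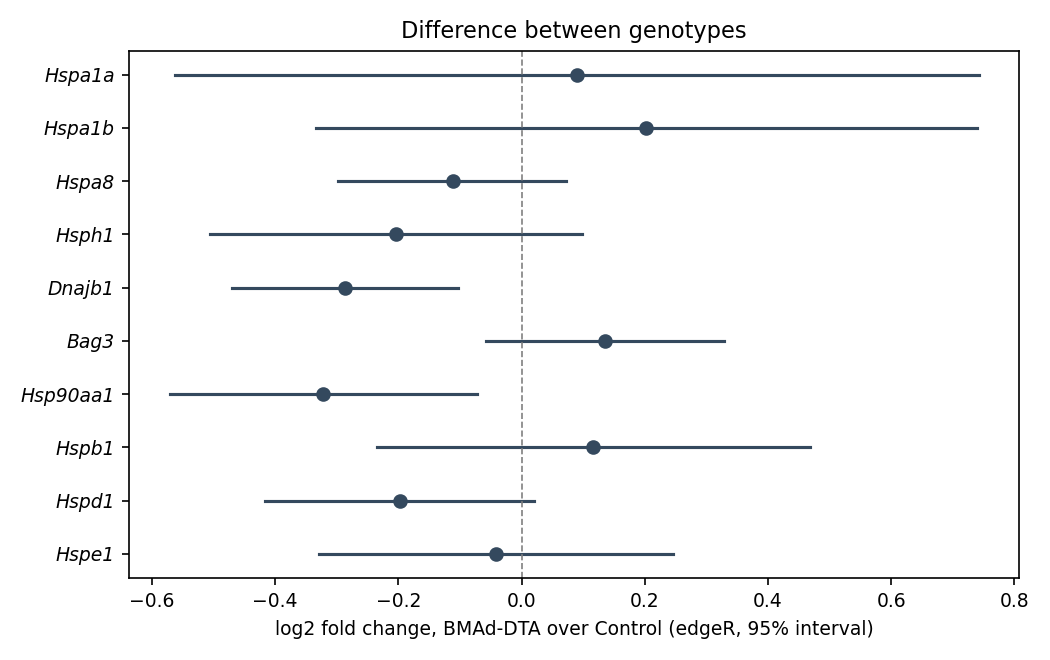
The log2 fold change of each gene, BMAd-DTA over Control (horizontal axis), from edgeR, with the point as the estimate and the line as its 95% interval; the dashed line marks 0. The intervals of Dnajb1 (-0.47 to -0.10) and Hsp90aa1 (-0.57 to -0.07) lie below 0 before adjustment over all genes, and those of the other 8 genes span 0.

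The inducible HSP70 proteins are encoded by Hspa1a (ENSMUSG00000091971.3, chr17:34969190-34972156, - strand, GRCm38) and Hspa1b (ENSMUSG00000090877.3, chr17:34956436-34959238, - strand), neighbouring copies that refold proteins after stress. The transcripts were 92.5% identical, and the 250 bases before their starts differed at 3 positions. Of the 100-base windows of Hspa1a, 48.6% also occurred in another gene's transcript, and of Hspa1b 49.9%, so that pairs wholly inside those stretches map to both and were not counted. The levels are therefore too low by an unknown amount, and a split between the copies is uncertain.

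Hspa1a was at 1.93, 1.65, 1.06 and 1.30 CPM in Control mice 1 to 4, and at 0.80 to 2.50 CPM (median 1.41) in BMAd-DTA mice. Behind these levels were 15 to 44 counts per library, of which the lowest has an exact Poisson 95% interval of 8.40 to 24.7 counts. The groups overlapped over nearly their whole range, with BMAd-DTA mice holding both the lowest and the highest value. Between the genotypes the log2 fold change was 0.09 (SE 0.30; 95% interval -0.56 to 0.74; adjusted p = 0.920, edgeR). Hspa1b was at 3.20, 2.30, 2.90 and 1.61 CPM in Control and at 1.76 to 3.95 CPM (median 2.69) in BMAd-DTA. Here too the groups overlapped, and the lowest mouse was a Control. Its log2 fold change was 0.20 (SE 0.25; 95% interval -0.33 to 0.74; adjusted p = 0.746, edgeR), and it ran from 0.04 without Control mouse 4 to 0.34 without Control mouse 1. Summed, which removes the question of the split, the 2 genes gave 3.98 ± 0.91 CPM in Control (SD, n = 4) and 4.46 ± 1.18 CPM in BMAd-DTA (SD, n = 7). For the sum the log2 fold change was 0.16 (95% interval -0.34 to 0.66; adjusted p = 0.788, edgeR), and the two-sided exact permutation test over the 330 splits of the mice gave p = 0.564, where the smallest p possible was 0.00303. The log2 value ran from 0.03 without Control mouse 4 to 0.31 without Control mouse 1. Fold changes of the sum outside 0.79 to 1.58 lay beyond the 95% interval at this depth. The within-group coefficient of variation was 32.4% for Hspa1a and 26.2% for Hspa1b, and counting error alone gives 19.1% and 14.4%.

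Hspa8 (ENSMUSG00000015656.17, chr9:40800984-40810087, + strand) encodes HSC70, the HSP70 that cells make without stress and that also strips clathrin from vesicles. Its level was 1155, 877, 941 and 1066 CPM in Control and 840 to 1001 CPM (median 957) in BMAd-DTA. Control mice 1 and 4 lay above every BMAd-DTA mouse, and 2 BMAd-DTA mice lay below every Control mouse. All 7 BMAd-DTA mice were below the Control mean, with a log2 fold change of -0.11 (SE 0.09; 95% interval -0.30 to 0.07; adjusted p = 0.562, edgeR), which was -0.04 without Control mouse 1 and -0.17 without Control mouse 2. With 14502 to 20962 counts a library, counting error was 0.77% and the spread between mice of a group 9.05%, so that depth did not limit the comparison. Of its transcript windows, 62.8% also occur in 1 or more of 7 other annotated genes, which removes pairs from its count.

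Hsph1 (ENSMUSG00000029657.15, chr5:149614287-149636376, - strand) encodes HSP110, a nucleotide exchange factor of HSP70 that also helps to dissolve aggregates. It was at 38.4, 26.9, 28.7 and 34.1 CPM in Control and at 21.4 to 34.1 CPM (median 28.7) in BMAd-DTA. The 2 highest Control mice exceeded the BMAd-DTA group, the second by only a small margin, and 2 BMAd-DTA mice were below every Control mouse. This gave a log2 fold change of -0.20 (SE 0.14; 95% interval -0.51 to 0.10; adjusted p = 0.504, edgeR), and of -0.11 without Control mouse 1.

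Dnajb1 (ENSMUSG00000005483.10, chr8:83608193-83612653, + strand) encodes HSP40, the J-domain partner that hands clients to HSP70 and speeds up its ATP hydrolysis. It was at 86.8, 82.2, 85.8 and 70.0 CPM in Control mice 1 to 4 and at 57.0 to 78.4 CPM (median 65.5) in BMAd-DTA mice. The first 3 Control mice lay above every BMAd-DTA mouse, 5 of 7 BMAd-DTA mice lay below every Control mouse, and only Control mouse 4 fell within the BMAd-DTA range. The group means were 81.2 ± 7.69 (SD, n = 4) and 66.6 ± 6.62 CPM (SD, n = 7), a log2 fold change of -0.29 (SE 0.09; 95% interval -0.47 to -0.10) or a ratio of 0.82. The unadjusted p of edgeR was 0.00501 and its adjusted p over all genes 0.120, so the difference did not pass the test. DESeq2 gave an adjusted p of 0.0443, and the two-sided exact permutation test gave p = 0.0152 before any adjustment. Without Control mouse 4 the groups no longer overlapped, and the log2 fold change was -0.35 (adjusted p = 0.0674, edgeR). By edgeR's p, 4.16% of the tested genes ranked ahead of Dnajb1. No other gene shared a 100-base window with it, and antisense counts over the locus were 0.129% of the sense counts. In the libraries with fewer than 12% unmapped pairs the difference in mean log2 CPM, BMAd-DTA minus Control, was -0.26, and in those with more it was -0.32.

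Bag3 (ENSMUSG00000030847.8, chr7:128523616-128546981, + strand) encodes another nucleotide exchange factor of HSP70, one that directs damaged muscle and cytoskeletal proteins to autophagy together with small heat shock proteins. The Control mice were at 60.6, 52.5, 45.3 and 46.2 CPM and the BMAd-DTA mice at 49.9 to 60.8 CPM (median 55.3). Control mice 3 and 4 lay below the BMAd-DTA group, while Control mouse 1 lay near its top. Its log2 fold change was 0.14 (SE 0.09; 95% interval -0.06 to 0.33; adjusted p = 0.481, edgeR), and 6 of 7 BMAd-DTA mice were above the Control mean. It was 0.23 without Control mouse 1, and 0.09 without either Control mouse 3 or Control mouse 4. Within libraries of fewer than 12% unmapped pairs the difference in mean log2 CPM was -0.01, against 0.27 in the others.

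Hsp90aa1 (ENSMUSG00000021270.13, chr12:110690605-110702728, - strand) encodes the inducible cytosolic HSP90. Its level was 393, 292, 246 and 351 CPM in Control mice 1 to 4 and 223 to 291 CPM (median 267) in BMAd-DTA mice. Control mice 1 and 4 stood well above the BMAd-DTA group, Control mouse 2 matched its highest member, and Control mouse 3 lay within it. The means were 321 ± 64.7 (SD, n = 4) and 256 ± 25.5 CPM (SD, n = 7), for a log2 fold change of -0.32 (SE 0.12; 95% interval -0.57 to -0.07) or a ratio of 0.80. The unadjusted p of edgeR was 0.0152 and the adjusted p 0.181, and the two-sided exact permutation test gave p = 0.0455 before adjustment, so the difference did not pass the test. It also depended on single mice: without Control mouse 1 the log2 fold change was -0.21 (adjusted p = 0.542, edgeR), and without Control mouse 3, when the groups no longer overlapped, it was -0.42 (adjusted p = 0.0568, edgeR). That separation was hardly more than a tie, with Control mouse 2 at 291.5 CPM and BMAd-DTA mouse 7 at 291.3 CPM in the main fit.

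The 2 Control mice with high Hsp90aa1 were those with few unmapped pairs. In libraries with fewer than 12% unmapped pairs, Hsp90aa1 averaged 372 CPM in 2 Control and 260 CPM in 3 BMAd-DTA mice, a difference in mean log2 CPM of -0.52. In the others it averaged 269 CPM in 2 Control and 253 CPM in 4 BMAd-DTA mice, a difference of -0.09. Hspd1 showed the same arrangement, with differences of -0.31 and -0.04, and so did Hspa8, with -0.20 and 0.002. The difference between the kinds of library was not tested, and the part of the unmapped share in these values was not tested beyond adding the split as a covariate. With that covariate, chosen after the data were seen, the log2 fold change was -0.29 for Hsp90aa1 (adjusted p = 0.195, edgeR) and -0.29 for Dnajb1 (adjusted p = 0.131, edgeR). With a skeletal muscle score as the covariate they were -0.34 and -0.27.

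**Figure D3:**
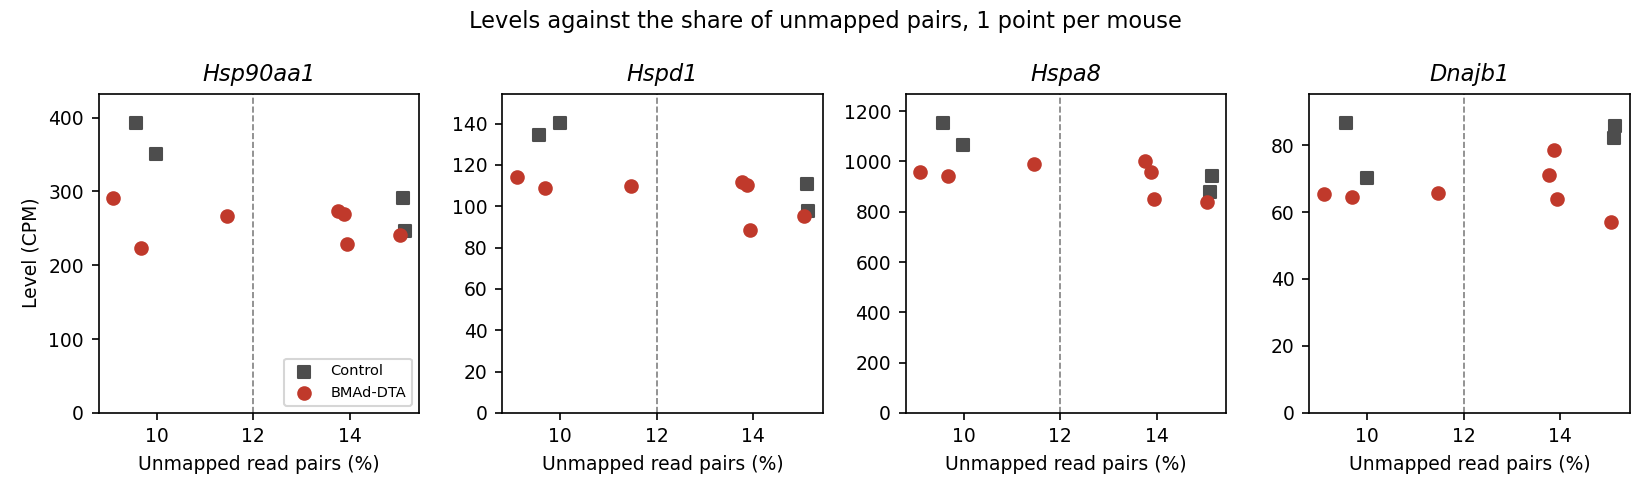
Levels of Hsp90aa1, Hspd1, Hspa8 and Dnajb1 in CPM (vertical axis from 0) against the share of unmapped read pairs in percent (horizontal axis), with Control mice as squares, BMAd-DTA mice as circles and a dashed line at 12%. For Hsp90aa1, Hspd1 and Hspa8 the 2 Control mice left of the line are the highest of all 11, while for Dnajb1 a high and a lower Control mouse lie on the left and 2 high ones on the right.

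Hspb1 (ENSMUSG00000004951.10, chr5:135887919-135889563, + strand) encodes the small heat shock protein HSP25, which binds unfolded proteins and actin filaments. It was at 5.51, 6.48, 5.97 and 3.79 CPM in Control and at 4.93 to 6.95 CPM (median 5.80) in BMAd-DTA, from 73 to 118 counts a library. Control mouse 4 was the lowest of all, the other 3 Control mice lay inside the BMAd-DTA range, and 2 BMAd-DTA mice were above every Control mouse. This gave a log2 fold change of 0.12 (SE 0.16; 95% interval -0.24 to 0.47; adjusted p = 0.782, edgeR), and without Control mouse 4 it was -0.02. The difference in mean log2 CPM was 0.40 in libraries with fewer than 12% unmapped pairs and -0.12 in the others. A pseudogene, Hsp25-ps1, shares 42.7% of its transcript windows.

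Hspd1 (ENSMUSG00000025980.14, chr1:55077835-55088243, - strand) and Hspe1 (ENSMUSG00000073676.4, chr1:55088132-55091307, + strand) encode HSP60, which forms the mitochondrial folding chamber, and HSP10, its lid. They overlap at their 5′ ends, and the heat shock element array shown above lies just outside the overlap, in Hspd1 alone. Hspd1 was at 135, 111, 97.6 and 141 CPM in Control and at 88.7 to 114 CPM (median 110) in BMAd-DTA. Control mice 1 and 4 lay above every BMAd-DTA mouse and the other 2 within the group. Its log2 fold change was -0.20 (SE 0.10; 95% interval -0.42 to 0.02; adjusted p = 0.350, edgeR), which was -0.12 without Control mouse 4 and -0.28 without Control mouse 3. Hspe1 was at 29.1, 21.7, 27.5 and 26.5 CPM in Control and at 18.9 to 30.9 CPM (median 25.1) in BMAd-DTA, and its Control values lay inside the BMAd-DTA range. Its log2 fold change was -0.04 (SE 0.13; 95% interval -0.33 to 0.25; adjusted p = 0.916, edgeR), and it was 0.01 without Control mouse 1. No relation between the 2 genes was detected across mice: Pearson's r of their log2 CPM was 0.12 (permutation p = 0.729, adjusted p = 0.916) and Spearman's rho -0.02 (permutation p = 0.968, adjusted p = 1.0), and r was 0.18 without the 2 mice farthest from the median of Hspe1. Antisense counts were 1.05% of sense counts at Hspd1 and 1.41% at Hspe1.

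Across mice, few relations among the members passed the test, and with 11 mice this does not show that the others are absent. Of 54 relations between log2 CPM levels (45 pairs of members, the sum of Hspa1a and Hspa1b with 8 members, and a muscle score with a member score), 2 had an adjusted permutation p under 0.05 by Pearson's r and 1 by Spearman's rho. Hsp90aa1 and Hspd1 passed by both, with r = 0.89 (permutation p = 0.0007, adjusted p = 0.0265) and rho = 0.91 (permutation p = 0.00022, adjusted p = 0.0119). That r was 0.70 without Control mice 1 and 4, 0.85 with the group means subtracted, and 0.68 in the 7 BMAd-DTA mice. It was 0.90 in the 5 libraries with fewer than 12% unmapped pairs and 0.96 in the 6 others. Hspa8 and Hspd1 had r = 0.86 (permutation p = 0.00098, adjusted p = 0.0265), and r = 0.80 without Control mouse 1 and BMAd-DTA mouse 2, but their rho of 0.84 (permutation p = 0.0023) had an adjusted p of 0.0621. Their r was 0.86 in the 5 libraries with fewer unmapped pairs and 0.66 in the 6 others. For Hsp90aa1 and Hspa8 the r of 0.80 (permutation p = 0.0032, adjusted p = 0.0576; rho = 0.68, permutation p = 0.0254, adjusted p = 0.342) was 0.38 without Control mice 1 and 4, 0.77 with the group means subtracted, 0.64 in the 7 BMAd-DTA mice, 0.92 in the 5 libraries with fewer unmapped pairs and 0.47 in the 6 others. Hsph1 had r = 0.68 with Hspd1 (permutation p = 0.0199, adjusted p = 0.230; rho = 0.60, permutation p = 0.0580, adjusted p = 0.447), and 0.78 without BMAd-DTA mice 3 and 6. Control mice 1 and 4, which had few unmapped pairs, held the highest 2 values of all 3 genes.

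**Figure D4:**
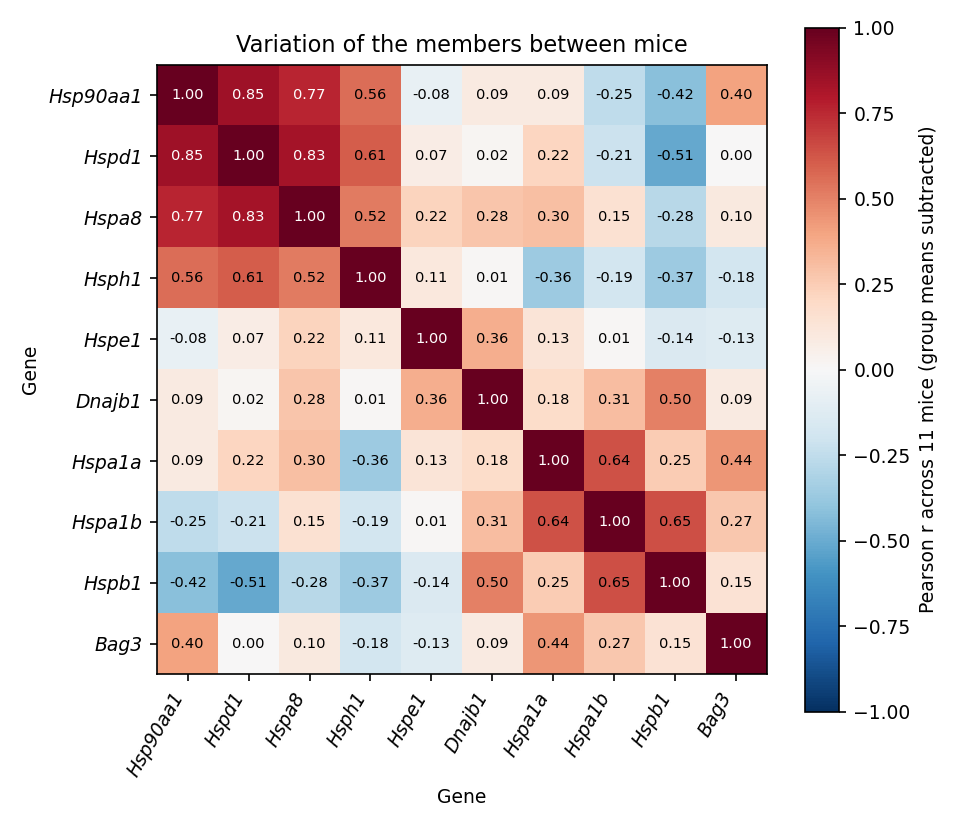
Pearson's r between the log2 CPM of each pair of genes (rows and columns) across the 11 mice, after the mean of each genotype was subtracted, on a color scale from -1 to 1. Hsp90aa1, Hspd1 and Hspa8 are related at 0.77 to 0.85, Hspa1b with Hspb1 at 0.65 and with Hspa1a at 0.64, and Hsph1 with Hspd1 at 0.61, while no value of Hspe1 or Bag3 with another gene is above 0.44.

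Hspa1a and Hspa1b had r = 0.63 with each other (permutation p = 0.0382, adjusted p = 0.295; rho = 0.68, permutation p = 0.0244, adjusted p = 0.342), from 15 to 67 counts per gene and library. It was 0.49 without BMAd-DTA mice 3 and 7, 0.80 in the 5 libraries with fewer than 12% unmapped pairs and 0.26 in the 6 others. None of the 8 relations of their sum with another member passed, with r from -0.34 (Hsph1) to 0.56 (Hspb1). The mean standardized level of the members had r = 0.05 with the muscle score (permutation p = 0.910, adjusted p = 0.996; rho = -0.17, permutation p = 0.617, adjusted p = 0.981; r = -0.24 without BMAd-DTA mouse 2 and Control mouse 4). Among 12965 other genes with at least 50 counts on average, the 10 most like the mean level of the members, with group means subtracted over the 11 mice, had r from 0.87 to 0.94. They were Bex4, Meg3, Mettl1, E130309D02Rik, Mtfp1, Snap23, Map3k20, Nudt5, Mrpl45 and Eif2b3, and none was called between the genotypes (adjusted p from 0.136 to 0.906, edgeR). Because these genes were picked as the highest of so many over 11 mice, their r is high by selection and was not tested. The members' own r with that mean, to which each contributes, ran only from 0.18 (Hspb1) to 0.78 (Hspa8).

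The other chaperone genes of the table were read from 9 further lists with 82 tested genes, and from 1 list of the endoplasmic reticulum. The 9 lists held mainly cytosolic and mitochondrial chaperones and their regulators. The edgeR test called 0 of the 82 at an adjusted p under 0.05. At an unadjusted p under 0.05 it had 12 (14.6%, against 16.4% of all genes), 9 lower and 3 higher, and DESeq2 called 2. Of the 82, 62 (75.6%) had a log2 fold change below 0, against 49.6% of all genes, with a median of -0.07. Small negative values were thus common, and none of them passed the test.

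All 8 subunits of the cytosolic chaperonin CCT, which folds actin and tubulin, had negative values, from -0.15 (Tcp1) to -0.05 (Cct2), with a median of -0.10. Control mice 1 and 4, which had few unmapped pairs, were the highest Control mice for all 8. The median was -0.057 without Control mouse 1 and -0.045 without Control mouse 4. It was -0.127 without Control mouse 2 and -0.153 without Control mouse 3. Of 10 mitochondrial chaperones and proteases 9 were negative (median -0.08; Afg3l2 -0.20, Clpp 0.01), of 23 J-domain proteins 19 (median -0.08; Dnajc6 -0.37, Dnajc17 0.15), and of 16 HSP90 co-chaperones 13 (median -0.04; Cacybp -0.17, Fkbp5 0.17). A list of 6 other HSP70 and HSP110 genes had a median of -0.08 (Hspa12a -0.30, Hspa13 0.14), and the 7 other HSP70 co-chaperones one of -0.07 (Bag2 -0.23, Stub1 0.09). The constitutive HSP90 gene Hsp90ab1 was at 1068 ± 160 CPM in Control (SD, n = 4) and 1046 ± 59.5 CPM in BMAd-DTA (SD, n = 7), with a log2 fold change of -0.03 beside the -0.32 of Hsp90aa1. The list of heat shock factors had 4 tested genes, with values from -0.11 (Hsf2) to 0.56 (Hsf4). It included Hsbp1, named here because it encodes a factor-binding protein and not a factor. Hsf1, the master regulator, named here for that role, was at 0.02 (SE 0.09, adjusted p = 0.936, edgeR). Of 15 endoplasmic reticulum chaperones, 10 were negative, and the values ran from -0.15 (Canx, a lectin chaperone) to 0.67 (Serpinh1).

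Of the 6 small heat shock proteins other than Hspb1, 3 (Hspb2, Cryab and Hspb7) had values of 0.79 or more, and the others were at 0.18 (Hspb11), 0.07 (Hspb8) and -0.02 (Hspb6), for a list median of 0.49. Hspb2 and Cryab are neighbours in the genome that are best known from muscle. Cryab, named after its values were seen, encodes αB-crystallin, the chaperone of lens, heart and muscle. It was at 11.1, 10.95, 14.5 and 7.99 CPM in Control and at 13.5 to 23.8 CPM (median 20.9) in BMAd-DTA, so that 6 of 7 BMAd-DTA mice lay above every Control mouse. Its log2 fold change was 0.80 (SE 0.18; 95% interval 0.41 to 1.20), with an adjusted p of 0.0720 by edgeR and 0.00162 by DESeq2. Hspb2 was at 0.77, 1.47, 1.89 and 0.78 CPM in Control and at 1.86 to 3.78 CPM (median 2.70) in BMAd-DTA. Again 6 of 7 BMAd-DTA mice lay above every Control mouse, with a log2 fold change of 1.15 (SE 0.30; 95% interval 0.51 to 1.79) and an adjusted p of 0.0937 by edgeR and 0.00816 by DESeq2. Its Control mean of 1.23 CPM was below the 1.48 CPM of Hspa1a, whose counting error was 19.1%. Hspb7, also named after its values were seen, had a log2 fold change of 0.79 with overlapping groups (adjusted p = 0.260, edgeR). For Hspb2 and Hspb7 the 2 lowest Control mice were 1 and 4, which had few unmapped pairs. For Cryab they were mice 2 and 4, and the part of the unmapped share in these values was not tested. Skeletal muscle markers, 19 of 20 of them with a negative value, had a median log2 fold change of -0.84, which was -0.15 without Control mouse 3 and -1.54 without BMAd-DTA mouse 6, and edgeR and DESeq2 called none.

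Serpinh1, which encodes HSP47, the chaperone of procollagen in the endoplasmic reticulum, was at 81.6, 121, 152 and 117 CPM in Control and at 141 to 234 CPM (median 185) in BMAd-DTA. In 6 of 7 BMAd-DTA mice it lay above every Control mouse, with a log2 fold change of 0.67 (SE 0.16; 95% interval 0.34 to 1.01) and an adjusted p of 0.0724 by edgeR and 0.00157 by DESeq2. Beside it, the 12 osteoblast and osteocyte markers all had positive values, with a median of 0.90, and their part in the Serpinh1 value was not tested. Without Control mouse 3, the adjusted p of edgeR was 0.0390 for Serpinh1, 0.0393 for Cryab and 0.0458 for Hspb2, so that all 3 passed, while without Control mouse 1 it rose to 0.234 for Serpinh1, 0.234 for Cryab and 0.318 for Hspb2.

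**Figure D5:**
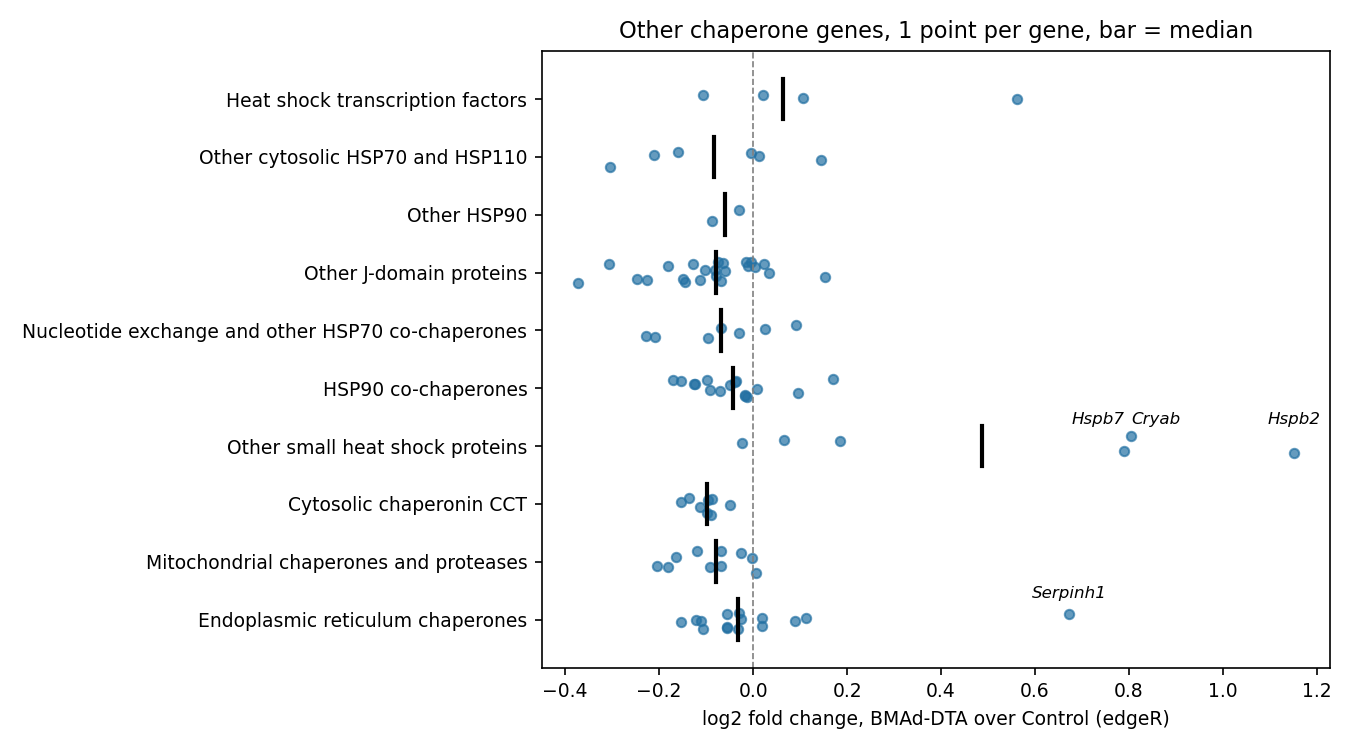
The log2 fold change, BMAd-DTA over Control (horizontal axis, edgeR), of the other chaperone genes tested, grouped by list (vertical axis); each point is 1 gene, the vertical bar is the median of the list and the dashed line marks 0. Of the 97 points, 63 lie between -0.2 and 0, while Hspb2, Cryab and Hspb7 among the small heat shock proteins and Serpinh1 in the endoplasmic reticulum lie between 0.67 and 1.15; none of the genes passed the test.

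Genes of other stress responses were read beside the members. Of 11 immediate early genes, which tissue handling also switches on, 7 had positive values, with a median of 0.16 and a range from -0.24 (Fosb) to 0.70 (Egr2). The cold-inducible RNA-binding genes were at 0.14 (Cirbp) and -0.07 (Rbm3). Of 9 oxidative stress genes 6 were positive (median 0.07; Hmox1 0.52, Nqo1 -0.42), and of 14 clock genes 11 (median 0.07; Ciart 0.35, Npas2 -0.40). The edgeR test called none of the genes in these lists. DESeq2 called 2 of them, beside 5.42% of all genes it could adjust. These were the heme oxygenase gene Hmox1 (higher, adjusted p = 0.0293) and Gclc (log2 fold change -0.35, adjusted p = 0.0492). Gclc, of the enzyme that starts glutathione synthesis, is named after its values were seen. By edgeR the adjusted p was 0.134 for Hmox1 and 0.133 for Gclc. With 1 mouse left out it ran from 0.0883 to 0.350 for Hmox1 and from 0.0661 to 0.434 for Gclc, both highest without Control mouse 1.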

How the data were processed

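Total RNA of powdered whole distal tibiae from 11 mice was sequenced as strand-specific paired-end mRNA libraries. Per the study's methods the authors checked reads with FastQC 0.11.9 and aligned them to mm10 with STAR, and they deposited whole, unnormalized counts of read pairs per gene, per library and as a merged table. The annotation release is not given in the sources used here. The merged counts equal the read-strand column of the library files, in which multimapping pairs are not counted. Pairs without a gene (6.58% to 8.44%), multimapping pairs (6.68% to 9.07%), ambiguous pairs (1.49% to 1.70%) and unmapped pairs (9.10% to 15.1%) stayed out of library sizes.

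The members and all lists were chosen with earlier results of these data known. Groups came from the labels, and mice were numbered in order of accession. The main test, edgeR 4.0.16 under R 4.3.3, ran on the merged counts (genes kept by filterByExpr, TMM, quasi-likelihood F test, two-sided, Benjamini-Hochberg over 16496 genes, adjusted p under 0.05); where the text gives an adjusted p of a gene without a tool, it is from this fit. SE is the log2 fold change over the root of F, and log2 CPM used a prior count of 2. Exact permutation tests covered the 330 splits of the mice, and relations used 100000 resamples. The 45 pairs of members were added to the relations after the data were seen, and all 54 were adjusted together. With 1 library per mouse, p-values between the genotypes judge a group difference against the spread between these mice. Intervals of counts cover counting error only. The alternatives comprised limma-voom (limma 3.58.1), DESeq2 1.42.0, other scalings and filters, the library files, covariates, and each mouse left out. Coordinates are from GENCODE M21 on GRCm38, the assembly of mm10, and 99.9% of the identifiers matched. Level per kilobase used the union of annotated exons.

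Named were the 10 members; of each list discussed, every gene past the threshold and those at both ends of its log2 fold changes; and the 10 genes most like the members. Lists covered other chaperones, other stress and clock genes, S phase genes and cell types. Their median log2 fold changes, where not given above, were -0.27 for S phase genes, -0.45 for erythroid, -0.05 for neutrophil, 0.43 for B lymphocyte, -0.10 for endothelial, 0.19 for chondrocyte and 1.04 for osteoclast markers, and -0.06 for 2 other HSP90 genes. The edgeR test called no gene of these, and DESeq2 called 7 S phase and 3 erythroid genes lower and 1 chondrocyte and 1 osteoclast marker higher. Listed genes outside the merged table (Ahsp, Bag1, Dnajc7, Hspa4l, Hspb3, Junb, Klf1 and Pdia6) were not analysed here.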

Additional observations from a re-analysis of the deposited data

How the results depend on the processing

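None of the 10 members was called in any alternative other than DESeq2, which called 1 (Dnajb1, adjusted p = 0.0443). Over the whole table DESeq2 called 845 genes, limma-voom 20, the robust quasi-likelihood fit 32, edgeR with DESeq2 size factors 20 and the fit with a muscle score as covariate 3, against 13, and leaving out 1 mouse gave 0 to 292. Of the 82 other chaperone genes, DESeq2 called 2, against 0, and leaving out 1 mouse gave 0 to 2 (2 without Control mouse 3). Members whose groups did not overlap numbered 0 to 1 when 1 mouse was left out (1 without Control mouse 3 and 1 without Control mouse 4). The first was Hsp90aa1, where the nearest mice of the groups were almost level, and the second Dnajb1. With 1 mouse left out, the log2 fold change of Dnajb1 ran from -0.35 to -0.25 (adjusted p from 0.0632 to 0.388, edgeR) and that of Hsp90aa1 from -0.42 to -0.21 (adjusted p from 0.0568 to 0.542, edgeR). Directions turned for Hspe1 (-0.12 to 0.02; 0.01 without Control mouse 1 and 0.02 without BMAd-DTA mouse 1), Hspa1a (-0.056 to 0.24; -0.034 without Control mouse 3 and -0.056 without BMAd-DTA mouse 3) and Hspb1 (-0.024 to 0.21; -0.024 without Control mouse 4), and the cause was not tested. The filter at a mean of 50 counts removes Hspa1a and Hspa1b, which then have no value. No paired analysis was run, because each library came from a separate mouse and the labels name no litter or other pairing. Depth limits Hspa1a and Hspa1b, whose counting error was 19.1% and 14.4%, more than the other members, where it was at most 9.96%.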
